A study of Mus musculus with 6 samples.

Results

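The genes described here are a set of caspases with an adaptor and an inhibitor of caspases: Casp1, Casp2, Casp4, Casp6, Casp9 and Casp12, the apoptosome scaffold Apaf1, and Xiap. They were taken as a list of 8 genes, of 19057 with a named probe, and every probe annotated with one of these symbols was used, 22 of the 45281 probes on each array (Birc4 is an older name of Xiap, and Casp11 one of mouse Casp4). Transcript levels were measured on 6 Illumina bead arrays, 1 per sample, with RNA from mouse Sertoli cells, the somatic cells that nurse germ cells inside the seminiferous tubule. The 3 cKO arrays came from Rb1 flox/- mice with Amh-Cre, in which the Amh promoter, active in Sertoli cells, drives the recombinase that deletes the floxed allele of the retinoblastoma gene. The 3 Control arrays came from Rb1 flox/- mice without Cre, so both groups carry 1 null Rb1 allele and only the cKO group carries Cre. All mice were 6 weeks old, of a C57B6J/129SvEv background, and their Sertoli cells carried a Sox9-GFP label and were sorted by fluorescence. The labels do not say whether each array came from its own animal or from a pool, so the p-values below compare 6 samples whose spread may be partly technical. An effect of Cre cannot be told apart from one of Rb1 loss.

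Caspases are cysteine proteases that lie inactive in the cell until an assembly of adaptor proteins brings them together. In the apoptosome, cytochrome c released from mitochondria makes Apaf1 form a ring that activates the initiator Casp9, which then cleaves executioner caspases. Xiap binds and blocks Casp9 and the executioners. Casp1 and Casp4 belong to the inflammatory branch, in which Casp1, recruited by inflammasomes, matures interleukin-1 beta and interleukin-18, and mouse Casp4 is activated by bacterial lipopolysaccharide in the cytosol. Both cleave gasdermin D, whose fragment opens pores in the cell membrane. In the testis these pathways are best known from germ cells, which die in large numbers by apoptosis and are engulfed by Sertoli cells.

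The stretches just before the starts of 3 of the genes are shown because these genes had the highest values in cKO arrays relative to Control arrays in this set, and because Casp1, Casp4 and Casp12 lie next to each other in that order on chromosome 9. The sequences are RefSeq's, build GRCm38.p6, each the 250 bases before an annotated start, written 5′ to 3′ on the gene's strand: Casp4 at chr9:5308599-5308848 on the plus strand, Casp1 at chr9:5298267-5298516 on the plus strand, and Apaf1 at chr10:91082744-91082993 on the minus strand. Capitals mark matches to the motif GGG, any 2 bases, TTTCC, a form of the site that NF-kB binds, on either strand.
Casp4: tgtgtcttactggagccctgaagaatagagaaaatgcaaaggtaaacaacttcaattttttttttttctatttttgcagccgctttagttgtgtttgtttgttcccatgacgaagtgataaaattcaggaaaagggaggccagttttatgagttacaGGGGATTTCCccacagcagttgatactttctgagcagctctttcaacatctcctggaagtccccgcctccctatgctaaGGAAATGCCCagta
Casp1: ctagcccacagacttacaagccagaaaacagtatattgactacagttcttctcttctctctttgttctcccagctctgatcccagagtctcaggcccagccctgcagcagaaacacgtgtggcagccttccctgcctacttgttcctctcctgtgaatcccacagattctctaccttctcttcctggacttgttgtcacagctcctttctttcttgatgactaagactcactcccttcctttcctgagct
Apaf1: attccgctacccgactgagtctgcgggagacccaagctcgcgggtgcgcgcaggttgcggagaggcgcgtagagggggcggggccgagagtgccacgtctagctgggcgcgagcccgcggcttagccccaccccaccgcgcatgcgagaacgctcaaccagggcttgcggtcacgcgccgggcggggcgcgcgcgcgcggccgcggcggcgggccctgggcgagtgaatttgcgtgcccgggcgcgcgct
The Casp4 stretch held this motif at 93 to 84 bases before the start on the plus strand, and at 14 to 5 bases before it on the minus strand. Of 32851 such windows of all genes, 1.41% held the motif, and among the 11 windows of the 8 genes only the 2 overlapping windows of Casp4 did, whose starts lie 11 bases apart. The E2F motif TTTCCCGC, present in 0.895% of windows, was found only before Casp2 among the 8 genes, 97 to 90 bases before its start. The other E2F motifs searched, TTTCGCGC and TTTGGCGC, and the interferon factor motif GAAA, any 2 bases, GAAA were found before none of the 8 genes, and lay in 0.256%, 0.417% and 2.98% of all windows. The STAT motif TTC, any 3 bases, GAA lay in 7.02% of windows and in that of Casp12. All motifs were searched on both strands, and they were chosen after the expression values were known. A match describes the letters only.

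The labelled cell type was checked first. All 13 Sertoli markers with a probe, Sox9, Dhh, Fshr and Cldn11 among them, were above background in both groups, 10 of them on all 6 arrays, with a median difference (cKO minus Control, log2) of -0.52. All 13 had a lower mean in cKO and 0 passed the test described below. Their summed raw intensity was 52858 to 60289 on cKO arrays and 59104 to 62027 on Control arrays, so the sums overlapped. In the mean normalised log2 value of the 13 genes, where each gene counts equally, the groups did not overlap. It ran from 8.88 to 10.14 in cKO, against 10.17 to 10.57 in Control. Each of 7 spermatid markers was also above background on every array, so germ cell RNA was present in both groups, and in such mixed material fewer cells of a type and less RNA per cell cannot be told apart. The 2 Rb1 probes were lower on every cKO array than on any Control array, and whether they lie in the deleted part was not determined. The share of probes above background ran from 43.0% to 50.04% on cKO arrays and from 46.0% to 53.5% on Control arrays. The arrays of cKO replicate 1 and Control replicate 3 lay at opposite ends, -113.9 and 110.2, of a first principal component with 58.9% of the variance, and the other 4 lay between -34.3 and 31.4.

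A probe counted as above background where its detection score, which runs from 0 to 1, was over 0.95. Of the 22 probes, 9 were above background on at least 3 of the 6 arrays and were tested, for 6 of the 8 genes. Of the 13 probes that were not tested, 7 were above background on no array, 5 on 1 array and 1 on 2 arrays. The 5 seen on a single array were probes of Casp9, Apaf1 and Xiap, and in each case that array was Control replicate 3, the array with the largest share of detected probes. Neither Casp12 nor Xiap had a tested probe. The 3 probes of Casp12, a caspase tied to the endoplasmic reticulum in rodents, had scores of at most 0.794. The 4 Xiap probes lay between 4.27 and 5.19 on the normalised log2 scale over all arrays, and 2 of them were above background on Control replicate 3 alone. No level or difference is given for these genes, and a probe at background sets only an upper bound on its transcript.

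**Figure D1:**
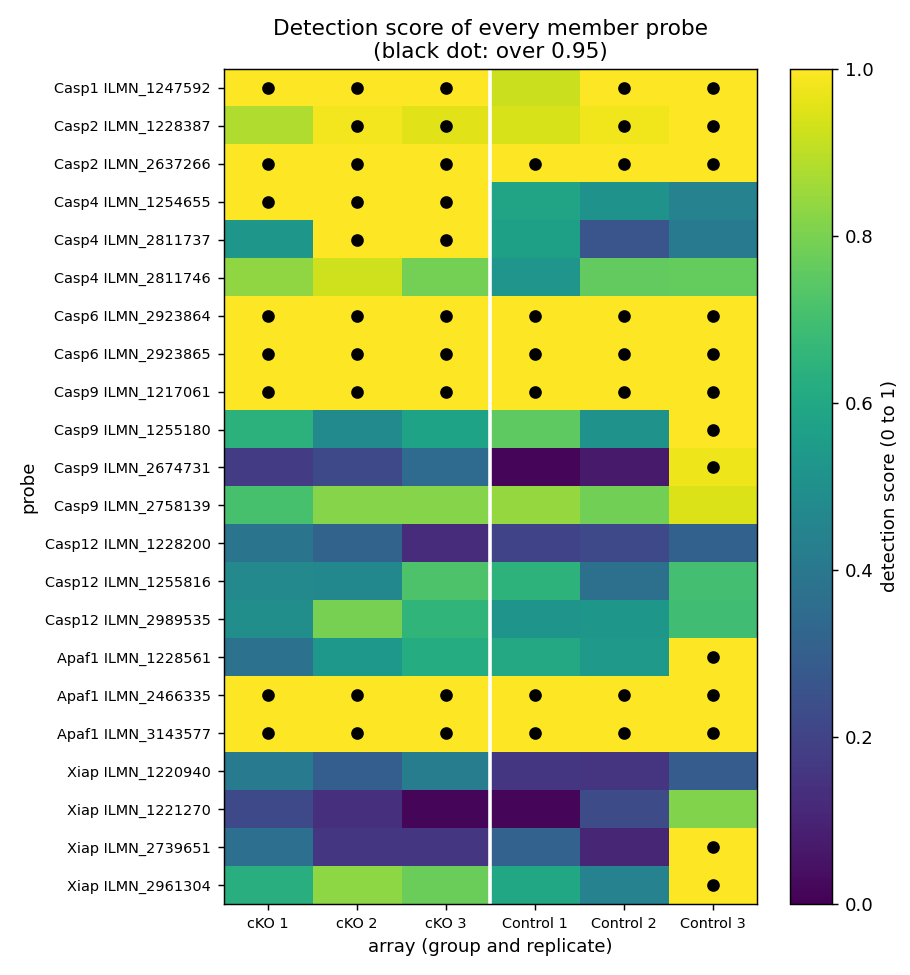
Detection score (colour, 0 to 1) of each of the 22 probes (rows) on the 3 cKO and the 3 Control arrays (columns), with a black dot where the score was over 0.95. The first 2 Casp4 rows have dots in cKO columns only, Casp12 has none, and the lone dots of Casp9, Apaf1 and Xiap stand in the column of Control replicate 3.

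Among the 9 tested probes, 1 passed the threshold as higher in cKO (limma adjusted p under 0.05; 0.142% of all 21805 tested probes passed in that direction) and 0 as lower (0% of all tested probes). At an unadjusted p under 0.05, 4 of the 9 were higher, against 4.63% of all tested probes, and 0 were lower, against 1.76%. The same 4 probes, of Casp4, Casp1 and Apaf1, were the ones with all cKO arrays above all Control arrays, which held for 8.04% of all tested probes, and none had all cKO arrays below all Control arrays, against 4.01%. The median difference over the 9 probes was 0.41, beside 0.08 over all tested probes. Over the 6 member probes above background on all 6 arrays, which leave out the Casp4 probe, the median was 0.10. Of these 4 probes only that of Casp4 passed the threshold, and the probes of Casp2, Casp6 and Casp9 overlapped between the groups.

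**Figure D2:**
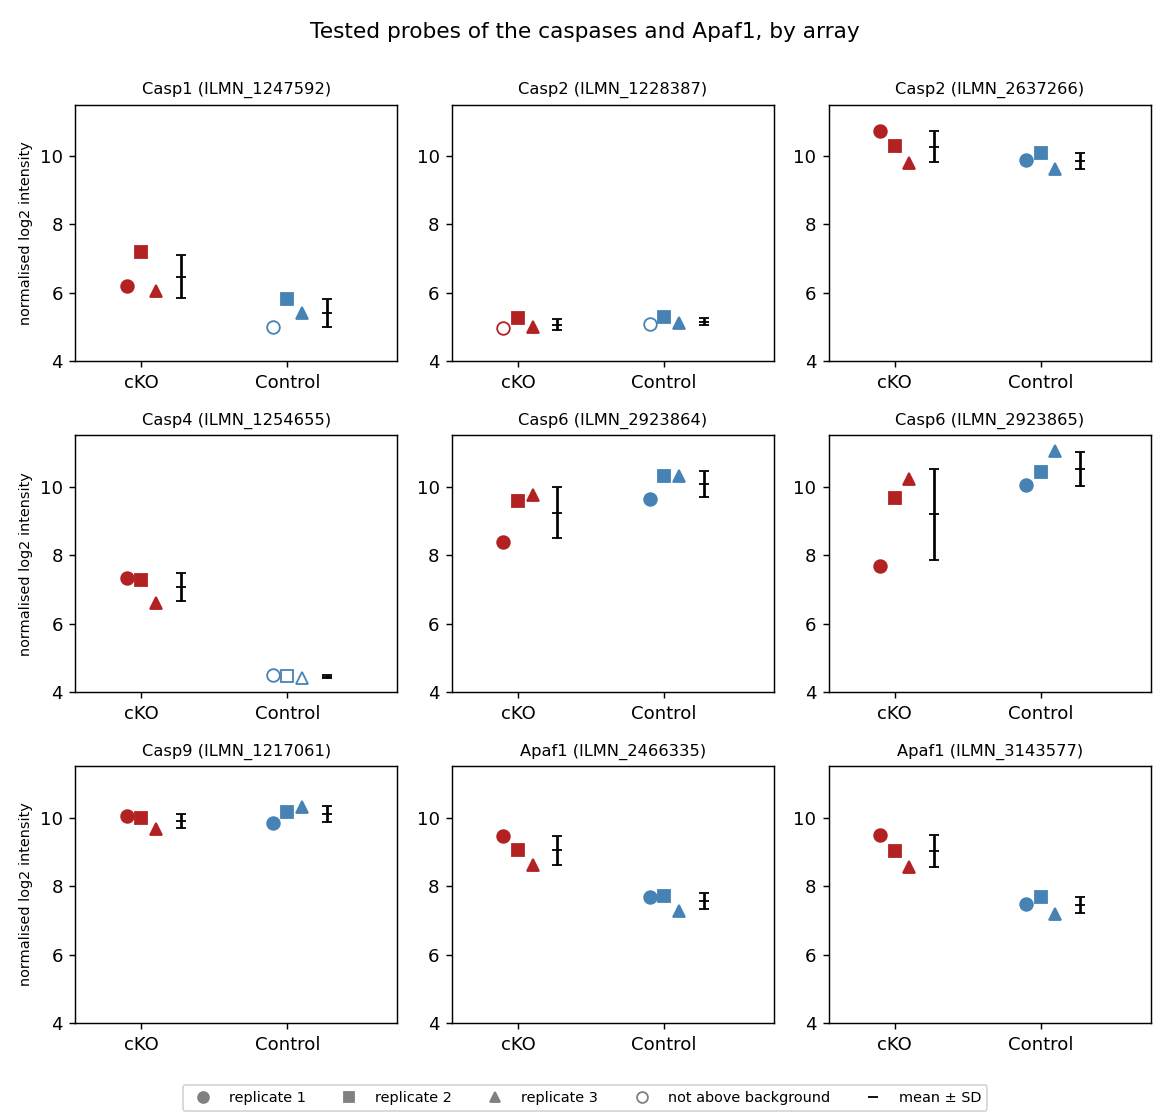
Normalised log2 intensity of the 9 tested probes on each array, cKO left of Control, with marker shape for the replicate number, open markers where the probe was not above background, and the mean ± SD (n = 3) beside each group. The Casp4 markers are filled in cKO, between 6.60 and 7.34, and open in Control, and both Apaf1 panels show cKO markers above all Control markers.

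Casp4 was the member with the clearest rise. Its probe ILMN_1254655 read 7.34, 7.28 and 6.60 log2 units on cKO replicates 1 to 3, against 4.49, 4.46 and 4.41 on the Control arrays. As raw intensities these were 164.3, 193.1 and 136.3 in cKO, against 46.6, 42.6 and 41.9 in Control. All 3 cKO arrays were above background and none of the Control arrays was, so the groups were far apart and the Control level is known only as not well above background. The mean was 7.07 ± 0.41 (SD, n = 3) in cKO and 4.45 ± 0.04 in Control, where the spread is that of values at background. The cKO level was at least 4.10-fold higher. The limma adjusted p of 0.0346 is for the fitted difference of 2.62 log2 units, which uses these Control values, and does not test this bound. For this bound the probe was placed, on each Control array, at the dimmest value of any probe above background there, which averaged 5.04. This probe entered the test only through the cKO arrays. Of the 167 tested probes above background on all 3 cKO and 0 Control arrays, 11, or 6.59%, passed.

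The other Casp4 probes gave less. Probe ILMN_2811737 was not tested, and read 4.49, 7.56 and 6.35 on cKO replicates 1 to 3, against 4.48, 4.38 and 4.40 in Control. It was above background on cKO replicates 2 and 3 only, so on cKO replicate 1 it went against the first probe, and over the 3 cKO arrays it was at least 2.13-fold higher. Probe ILMN_2811746 was above background on no array, with 4.85, 4.98 and 4.61 in cKO and 4.46, 4.63 and 4.54 in Control, so 2 of the 3 probes showed Casp4 in cKO cells. Which transcripts each probe reads was not determined.

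The Casp4 call depended on the settings, although the difference was positive in all 14 alternatives that gave one. With the replicate number as a block the adjusted p was 0.0835. It was 0.102 with an offset of 50, with a difference of 1.60 log2 units in place of 2.62, and 0.0889 with no background correction, with a difference of 1.58. With the deposited log2 values it was 0.0797 and the difference 1.89. Leaving out any single array other than cKO replicate 3 also ended the call, with adjusted p of 0.0770 and 0.186 without cKO replicates 1 and 2, and of 0.226, 0.231 and 0.154 without Control replicates 1, 2 and 3. Without both arrays that stood apart it was 0.104, with a difference of 2.46, and it was 0.121 when dim probes were kept in the test.

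**Figure D3:**
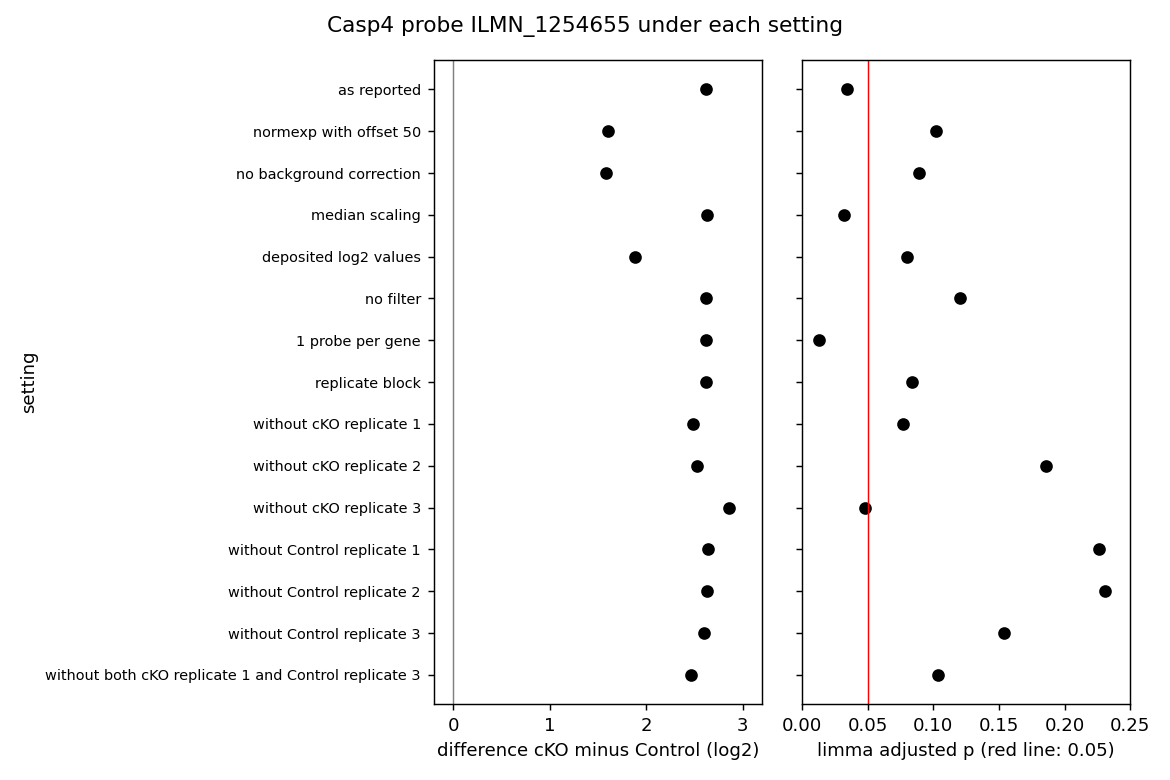
Difference of Casp4 probe ILMN_1254655 (cKO minus Control, log2, left) and its limma adjusted p (right, red line at 0.05) as reported and under each alternative setting. Every difference lies right of 0, between 1.58 and 2.86, while the adjusted p lies left of the line in 4 of the 15 settings shown.

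Casp1, the caspase of the canonical inflammasome and the neighbour of Casp4, had a smaller difference that did not pass. Its only probe read 6.19, 7.19 and 6.04 on cKO replicates 1 to 3, against 5.00, 5.81 and 5.41 on the Control arrays. The lowest cKO array lay just above the highest Control array, and the probe was above background on all cKO arrays and on 2 of the 3 Control arrays. The difference was 1.07 ± 0.39 (SE) log2 units, with a 95% interval from 0.16 to 1.98 and a limma adjusted p of 0.701. It was 0.71 without cKO replicate 2, the highest array, and 0.62 with no background correction.

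Cells of the immune system express Casp1 and Casp4 at high levels, and their markers were measured beside them. Of 14 macrophage and leukocyte markers with a probe, 3 (the pan-leukocyte gene Ptprc, Itgam and Tyrobp) were above background on no array, and 4 (Csf1r, Cd14, Lyz2 and Cd3e) on some cKO arrays and on no Control array. Of the 7 tested, 0 passed in either direction, 6 lay higher in cKO by their means, and the median difference was 1.13 log2 units. The summed raw intensity of the list was 4538 to 6040 on cKO arrays and 5280 to 6305 on Control arrays, so the groups overlapped in the sum. Mrc1, the brightest gene of the list on every array and thus the largest part of the sum, differed by -0.83. In the mean normalised log2 value of the 14 genes, where each gene counts equally, the groups did not overlap. This mean ran from 6.40 to 6.96 in cKO, against 5.68 to 6.22 in Control. Lyz2 read 6.70, 4.80 and 5.53 on cKO replicates 1 to 3 and at most 4.78 in Control. The part of these cells in the Casp4 and Casp1 values was not tested.

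Of the lists of markers of other testis cells, 3 did not overlap between the groups in their sums. For 8 endothelial markers the summed raw intensity was 1882 to 4339 on cKO arrays and 682.3 to 756.0 on Control arrays, and all 7 tested had a mean higher in cKO. Robo4, the brightest of them on every array, differed by 3.69 log2 units (limma adjusted p 0.0514). The other tested endothelial markers differed by 0.39 (Cdh5) to 1.39 (Emcn). For 7 peritubular myoid markers the sum was 5738 to 13653 in cKO and 2531 to 2856 in Control, with 5 of 5 tested higher by their means. Acta2, the brightest of these on every array, differed by 1.81. For 9 spermatogonia markers the sum was 4336 to 6042 in cKO and 2019 to 3782 in Control, with 8 of 8 tested higher. In these 3 lists the sum was highest on cKO replicate 1, and 0 genes passed. Spermatocyte, spermatid and Leydig sums overlapped between the groups. The mean normalised log2 values of the spermatocyte and spermatid lists overlapped as well, but those of the Leydig list did not. For the 6 Leydig markers this mean ran from 7.11 to 8.05 in cKO, against 6.37 to 6.82 in Control. Of the 5 Leydig markers tested, 4 had a mean higher in cKO and 0 passed, with a median difference of 1.26 log2 units. The part of these cells in the values of the caspases, Apaf1 and their partners was not tested.

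Apaf1, the scaffold of the apoptosome, was higher on every cKO array than on any Control array by both probes that detected it, without passing the threshold. Probe ILMN_2466335 read 9.46, 9.05 and 8.62 on cKO replicates 1 to 3, against 7.68, 7.70 and 7.29 in Control. Probe ILMN_3143577 read 9.50, 9.04 and 8.57 in cKO, against 7.47, 7.68 and 7.19 in Control. The probes thus gave nearly the same profile, with cKO replicate 1 highest and a gap of about the same size between the groups. Their differences were 1.49 ± 0.31 (SE) and 1.59 ± 0.32 log2 units, or 2.81-fold and 3.01-fold, with limma adjusted p of 0.203 and 0.195. Between same-numbered arrays, cKO minus Control, the first probe differed by 1.78, 1.35 and 1.34 log2 units. The difference of the first probe ran from 1.15 to 1.70 over its 15 alternatives, lowest without both arrays that stood apart, with adjusted p from 0.113 to 0.600. The remaining Apaf1 probe, ILMN_1228561, was above background on Control replicate 3 alone, with 5.20 there and at most 4.50 on the other arrays.

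Casp9, the initiator caspase that Apaf1 activates, did not follow it. Probe ILMN_1217061 read 10.04, 9.98 and 9.68 on cKO replicates 1 to 3, against 9.85, 10.16 and 10.31 in Control. The groups overlapped, with a difference of -0.21 ± 0.26 (SE) log2 units, a 95% interval from -0.82 to 0.41 and a limma adjusted p of 0.814. The interval of Casp9 lies below that of either Apaf1 probe, whose lower ends are 0.77 and 0.84, although the difference between the genes was not tested. The other 3 Casp9 probes were above background on at most 1 array.

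Casp2, an initiator caspase that the PIDD protein activates, gave different values by probe. Probe ILMN_2637266 read 10.72, 10.31 and 9.80 in cKO, against 9.88, 10.09 and 9.62 in Control, and the groups overlapped. Its difference was 0.41 ± 0.32 (SE) log2 units, with a 95% interval from -0.33 to 1.15 and a limma adjusted p of 0.766, and it was 0.07 without both arrays that stood apart. The dim probe ILMN_1228387, above background on 4 arrays, gave -0.09 ± 0.24.

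Casp6, an executioner caspase that cleaves nuclear lamins, was the member with the lowest values in cKO relative to Control, without passing the threshold, and its difference was largest on 1 array. Probe ILMN_2923865 read 7.69, 9.66 and 10.24 on cKO replicates 1 to 3, against 10.06, 10.45 and 11.06 in Control. Probe ILMN_2923864 read 8.39, 9.58 and 9.76 in cKO, against 9.66, 10.31 and 10.33 in Control. In both, cKO replicate 1 was far below all other arrays, and the remaining cKO arrays lay near Control replicate 1. The differences were -1.32 ± 0.65 and -0.85 ± 0.42 (SE) log2 units, with a limma adjusted p of 0.766 each. Between same-numbered arrays, cKO minus Control, the first probe differed by -2.37, -0.79 and -0.82 log2 units and the second by -1.27, -0.73 and -0.57. Both probes were thus lower in cKO at each replicate number, although the labels do not say what a number stands for. With the replicate number as a block the adjusted p was 0.267 and 0.262. Without cKO replicate 1 they were -0.57 and -0.43, and without both arrays that stood apart -0.30 and -0.31. The Sertoli markers Inha and Trf were low on the same array, Inha at 5.42, 9.92 and 12.24 on cKO replicates 1 to 3, and Trf at 4.57, 7.77 and 9.97, against at least 11.20 and 9.19 on the Control arrays. The part of what sets this array apart in the Casp6 values was not tested.

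The partners of these caspases were taken from a list of 65 genes of caspase activation, inhibition and substrates, of which 38 had a tested probe. By each gene's brightest tested probe, 0 of 38 passed in limma as higher (0.195% of all 12277 genes passed) and 0 as lower (0%). At an unadjusted p under 0.05, 6 were higher, against 5.96% of all genes, and 0 lower, against 1.81%. The same 6 had all cKO arrays above all Control arrays, against 9.56% of genes, and 1, Birc2, had all below, against 4.33%. The median difference was 0.38 over the list and 0.12 over all genes.

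These 6 were Gbp2, Gsdmd, Casp8, Lmnb1, Birc5 and Bid. Gsdmd encodes gasdermin D, the pore-forming substrate of Casp1 and Casp4. Its probe ILMN_2941324 read 9.89, 8.84 and 8.75 on cKO replicates 1 to 3, against 7.76, 7.46 and 6.98 in Control, a difference of 1.76 ± 0.39 (SE) with a limma adjusted p of 0.262. A further Gsdmd probe gave 1.52, and its remaining probe was above background on no array. Gbp2, an interferon-induced GTPase that helps expose lipopolysaccharide of vacuolar bacteria to Casp4, read 9.69, 8.85 and 8.58 in cKO, against 6.70, 7.47 and 5.89 in Control. Its difference was 2.35 ± 0.48 (SE) with a limma adjusted p of 0.195. Without both arrays that stood apart, the differences were 1.18 for Gsdmd and 1.63 for Gbp2.

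The remaining 4 differed less. Casp8, the initiator caspase of death receptors, gave 0.94 and 1.08 log2 units by its 2 tested probes, with adjusted p of 0.462 and 0.612. Bid, which links Casp8 to the mitochondria, gave 1.13, or 0.46 without both arrays that stood apart. Lmnb1, the nuclear lamin B1, gave 0.93, and the mitotic inhibitor of apoptosis Birc5 gave 0.85, with other probes at 0.38 for Lmnb1 and at 0.32 and 0.03 for Birc5. Cytochrome c (Cycs) and the Xiap antagonist Diablo, which act at the apoptosome, had differences of -0.27 and 0.36, and with 95% intervals from -1.01 to 0.46 and from -0.35 to 1.07 neither direction was resolved.

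Of the inflammasome genes with a tested probe, none passed. The adaptor Pycard, above background on 5 of the 6 arrays, read 6.24, 5.81 and 5.12 in cKO, against 4.77, 5.61 and 4.89 in Control, and the groups overlapped, with a difference of 0.64 ± 0.39 (SE) and a limma adjusted p of 0.766. Nlrc4 and Naip2, which together sense bacterial proteins in the cytosol, were above background on all 6 arrays, with differences of 0.55 and 0.40 log2 units. Il18, a substrate of Casp1, was above background on 3 arrays by its tested probe, with a difference of 0.54. By the tested probes of these 3 genes the groups overlapped. A dim Il18 probe that was not tested read 5.14, 5.09 and 5.03 in cKO, against 4.85, 4.94 and 4.59 in Control. It was above background on 2 cKO arrays and on 0 Control arrays. Neither the sensor Nlrp3 nor Aim2 had a probe above background on any array. Il1b, a further substrate that Casp1 matures, was above background on 1 cKO array and on no Control array.

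**Figure D4:**
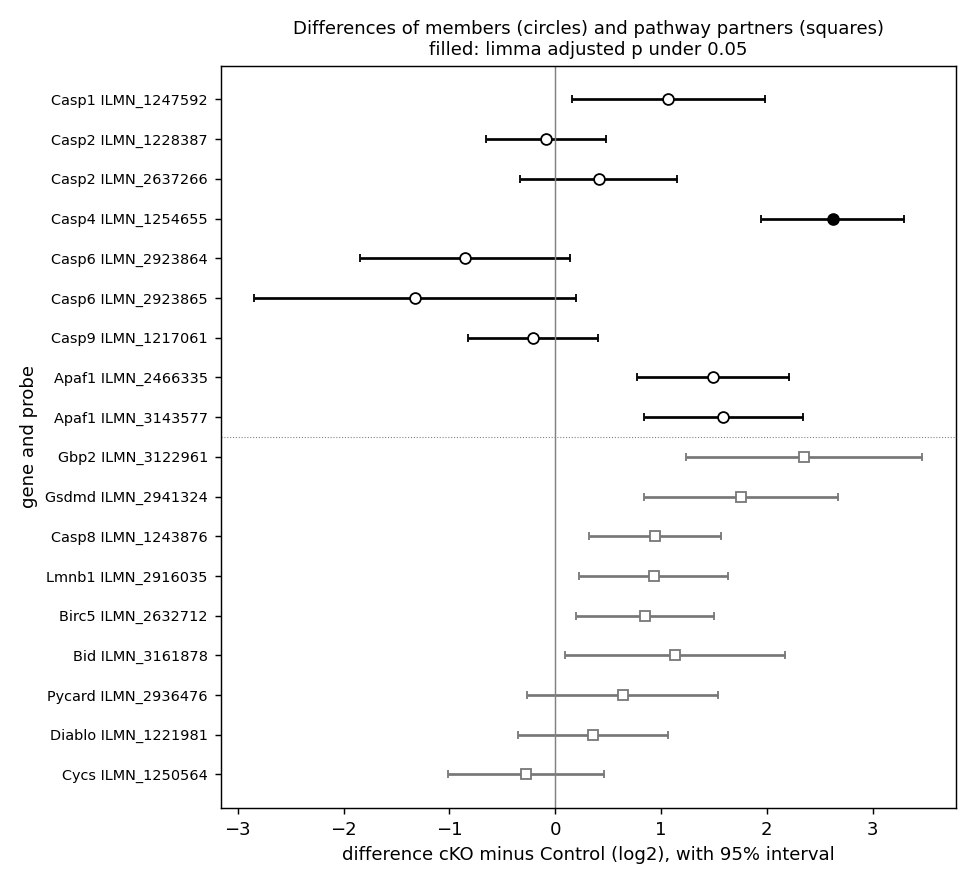
Difference (cKO minus Control, log2) with its 95% interval from limma for the 9 tested probes of the caspases and Apaf1 (circles) and the 9 named partners (squares), filled where the adjusted p was under 0.05. Casp4 is the only filled marker, at 2.62 between fitted values that include Control arrays at background, and the Casp2, Casp6 and Casp9 intervals cross 0.

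Profiles over the 6 arrays were compared as a description, by Pearson's r between the brightest tested probe of a gene and that of each other gene. All points share the same 6 arrays and the 2 groups, and with 12277 genes compared high values of r are easily reached. Most like Apaf1 were Lxn, Bcl2a1b and Ces2g, at r of 0.999, 0.997 and 0.997. Those of Casp1 were Fam168a, Rab3b and Coa6, at 0.975, 0.968 and 0.962, and those of Casp9 were Stt3a, Mcts1 and Ankrd10, at 0.995, 0.994 and 0.993.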

How the data were processed

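Per the file headers, each array's deposited table holds a mean intensity, the bead standard deviation as a signal, a bead count and a detection score (fraction, 0 to 1) per probe. The submitters' processing notes name BeadStudio, without a version. Member probes had 19 to 64 beads per array, and the number of arrays limits the precision. The deposited log2 values of the series table were found to be log2 intensities less the 75th percentile of their array, with the median of the probe's 6 values then taken off; the tool for this is not stated in the sources used here. Their column medians, cKO replicates 1 to 3 first, were 0.244, -0.022 and -0.194, and those of Control 0.040, 0.098 and -0.301. Through this formula all 45281 table entries found their own scanner probe, within 0.00069 and with a second probe no nearer than 0.0042, which gave the gene names: 34885 probes had 1 symbol, 18 several and 10378 none.

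Intensities were processed with neqc (background from detection values, offset 16, quantile normalisation) and tested with lmFit and eBayes of limma 3.58.1 in R 4.3.3, two-sided, group as the only term, with Benjamini-Hochberg adjustment over 21805 probes. Every probe of the 8 genes was named. Of the partner list, Casp8, Cycs, Diablo, Pycard, Nlrp3 and Il1b, any past the threshold and the 6 with the smallest p were named, Aim2, Birc2, Nlrc4, Naip2 and Il18 being chosen after their values were seen. Some further genes that this rule names are not reported here. The members and lists were chosen with earlier results of these data known. Arrays with the same replicate number deviated together from their group means (r of 0.262, 0.410 and 0.473 over the tested probes), so the numbers were treated as a pairing and entered as a block in an alternative. The labels do not say what a number stands for. Tested on simulated data of this comparison (21805 probes, 200 changed in each of 10 runs), the fit called 0.60% of changes of 2-fold, 42.4% of 4-fold, 74.4% of 8-fold and 84.0% of 16-fold, and 5.00% of calls were unchanged probes. The simulated noise was independent between probes and between arrays. It lacked the shared deviations of the real arrays, so these shares hold for independent noise only.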

Additional observations from a re-analysis of the deposited data

How the results depend on the processing

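Over all tested probes limma called 31 as reported, all higher. It called 12 with an offset of 50, 12 with no background correction, 56 with 1 probe per gene, 1 with no filter on dim probes, 6 with cKO replicate 1 and Control replicate 3 both left out, and 0 to 15 when single arrays were left out. With the replicate number as a block it called 0 of all probes (3257 at an unadjusted p under 0.05) and 0 of the 9 caspase and Apaf1 probes (6 at an unadjusted p under 0.05). Of those 9 probes limma called 1 as reported. The count was 0 with an offset of 50, with no background correction, with the deposited log2 values, with no filter, or with both arrays that stood apart left out (4 at an unadjusted p under 0.05 in each). With detection required on all 6 arrays it was also 0 (2 at an unadjusted p under 0.05), because the Casp4 probe was then not tested, and it was 0 or 1 when single arrays were left out. Of the 31 calls over all tested probes, that of Casp4 among them, none remained with the block. The median difference of the 9 caspase and Apaf1 probes was 0.41 as reported. It was 0.067 without both arrays that stood apart, and ran from 0.19 to 0.65 when single arrays were left out. With 1 probe per gene it was 0.74, and over the 6 probes above background on all 6 arrays it was 0.10. No partner gene was called under any of the 15 alternatives. Differences of single probes were compared between settings for the 9 caspase and Apaf1 probes. The same was done for the brightest tested probes of Gbp2, Gsdmd, Casp8, Lmnb1, Birc5, Bid, Cycs, Diablo and Pycard. Without both arrays that stood apart the difference of Cycs turned to 0.0036 and that of Diablo to -0.0044. With single arrays left out they ran from -0.52 to -0.09 and from 0.17 to 0.51. No other difference of the compared probes changed sign under these alternatives. The signs of other probes, those of Il18, Nlrc4 and Naip2 and the further Birc5 probes among them, were not compared. Median scaling moved the median difference of all tested probes to 0.13 from 0.08. Apart from the Casp4 probe leaving the test where detection on all 6 arrays was required, the cause of these changes was not tested.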
